A study of Rattus norvegicus with 18 samples.

Results

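In all, 10 genes of the insulin-like growth factor (IGF) system were followed through 18 RNA-seq libraries of rat nucleus pulposus cells in culture. The nucleus pulposus is the soft, hydrated centre of an intervertebral disc. They were the rows of the deposited count table named Igf1, Igf2, Igf1r, Igfbp2, Igfbp3, Igfbp4, Igfbp5, Igfbp6, Igfbp7 and Pappa1. All 10 were found among the 33898 genes of the table, and 9 of them were among the 14184 genes that had enough counts to be tested; Igf2 was not. The cells came from Sprague Dawley rats labelled as 8 weeks old and were kept in DMEM with serum. They were treated for 24 h with PDS, Phen-DC3 or Braco-19, 3 compounds that bind and stabilise G-quadruplexes, the folded structures that guanine-rich nucleic acids can form. Each compound had 3 libraries. PDS and Phen-DC3 each had 3 control libraries that carry the compound's name in their titles. A further 3 controls name no compound. They were set against Braco-19 because they are the only controls left, and are called the unnamed controls here. The labels give no dose and do not say what the control cells received, so doses could not be matched between compounds. They also do not say whether the libraries of a group came from separate animals or cultures, so a p-value measures only the spread between these libraries.

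The IGF system couples a pair of secreted growth factors to cell growth and survival. Igf1 and Igf2 encode the ligands, and Igf1r encodes the receptor tyrosine kinase through which both act. Most circulating and tissue ligand is held by the IGF-binding proteins, which extend its lifetime and limit its access to the receptor. Pappa1, named Pappa in RefSeq, encodes pappalysin-1, a secreted metalloprotease that cleaves IGF-binding protein 4 and so frees ligand near the receptor. In the disc, IGF signalling is known for stimulating matrix synthesis by nucleus pulposus cells.

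Because the compounds bind G-quadruplexes, the 250 bases before each RefSeq start site (build GRCr8) were searched for 4 runs of at least 3 G with 1 to 7 bases between runs, on either strand. There were 10 such windows for 9 of the genes, Igf2 having 2, and the window of Pappa was not in the table used. The pattern was found in 3 of the 10 windows and in 14.9% of all 33469 windows. A matching stretch from each of these 3 windows is printed below 5′ to 3′ on the gene's strand, to show which letters the search finds, with the runs of G, or of C where the G runs lie on the opposite strand, in capitals.

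Igf2, chr1:207250580-207250610, minus strand: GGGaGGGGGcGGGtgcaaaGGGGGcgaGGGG
Igfbp4, chr10:84491367-84491391, plus strand: CCCCCtcgCCCtCCCCtgctctCCC
Igfbp7, chr14:31091550-31091573, plus strand: GGGcatGGGacGGGctcgccGGGG

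The Igfbp7 stretch ends 162 bases before the start site, the Igfbp4 stretch 79 bases before it, and the Igf2 stretch 104 bases before it. With up to 12 bases allowed between runs, 7 of the 10 windows matched, against 23.4% of all windows. With runs of only 2 G, all 10 matched, against 70.0%. The windows of Igf1r and Igfbp2 are printed whole, since these genes had large differences between libraries, described below, and neither window holds the stricter pattern; capitals mark runs of at least 3 G.

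Igf1r, chr1:130959747-130959996, plus strand: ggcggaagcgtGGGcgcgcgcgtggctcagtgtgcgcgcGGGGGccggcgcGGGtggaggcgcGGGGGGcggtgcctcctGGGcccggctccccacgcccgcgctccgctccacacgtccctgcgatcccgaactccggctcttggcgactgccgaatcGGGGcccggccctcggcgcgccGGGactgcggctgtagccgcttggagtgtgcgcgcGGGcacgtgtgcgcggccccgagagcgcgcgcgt
Igfbp2, chr9:81864561-81864810, plus strand: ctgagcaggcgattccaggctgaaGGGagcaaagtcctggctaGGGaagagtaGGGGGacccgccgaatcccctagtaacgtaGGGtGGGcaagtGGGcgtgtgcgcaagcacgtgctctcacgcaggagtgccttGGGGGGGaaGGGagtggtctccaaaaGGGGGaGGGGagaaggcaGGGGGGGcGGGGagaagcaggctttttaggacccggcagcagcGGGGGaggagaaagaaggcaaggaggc

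The Igf1r window is 79.6% G and C and has 8 such runs, and the Igfbp2 window is 64.0% G and C with 13. A match is a match of letters only, and no measurement of G-quadruplex folding was used.

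Each library held 15715121 to 18369443 counts, and the 10 genes together took 0.0950% to 0.171% of them. The libraries fell into 2 sets. In the 12 libraries of the PDS and Phen-DC3 experiments, genes with models over 5000 bp took 7.42% to 10.7% of the counts and fibronectin (Fn1) 0.636% to 1.32%; in the 6 unnamed control and Braco-19 libraries the shares were 23.3% to 25.4% and 6.49% to 7.77%. Of 16 nucleus pulposus and notochord marker symbols, 14 were matched. Their summed level was 187 to 232 CPM, that is, counts scaled to a common library size, with Pax1 means from 76.1 to 111 CPM, Foxf1 from 35.1 to 44.2 CPM and Col2a1 from 9.80 to 20.3 CPM. The defining markers Krt19, Shh, Noto and Tbxt had no count in any library, and Acan, the main disc proteoglycan, averaged at most 0.220 CPM in the PDS and Phen-DC3 experiments, 2.85 CPM in the unnamed controls and 1.74 CPM with Braco-19. The sum hides opposite moves of single markers between the control groups, given below. In bulk RNA, fewer cells of a type and less RNA per cell cannot be told apart.

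Igfbp7 dominated the set. CPM here are scaled to the trimmed mean of M values (TMM), and divided by the length of the gene model where genes are compared with each other. Igfbp7, a secreted protein that binds IGFs weakly, had group means of 733 to 1345 CPM per kb. Igfbp6, which prefers Igf2 as its ligand, followed with 17.4 to 43.5 CPM per kb and Igf1r with 8.13 to 43.3 CPM per kb. Igfbp2, a binding protein carrying an integrin-binding motif, had 1.57 to 12.8 CPM per kb, and Igfbp3, the main carrier in serum, 2.24 to 5.94 CPM per kb. Pappa1 had 0.672 to 5.11 CPM per kb and Igfbp4, its substrate, 0.573 to 1.34 CPM per kb. Igfbp5, which binds extracellular matrix, had 0.0377 to 0.646 CPM per kb. The ligands were as low, Igf1 with 0.0951 to 0.326 CPM per kb and Igf2 with 0.0438 to 0.0952 CPM per kb. In the 4 groups of the PDS and Phen-DC3 experiments the mean of Igfbp5 lay below that of Igf1, and with Phen-DC3 also below that of Igf2.

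**Figure D1:**
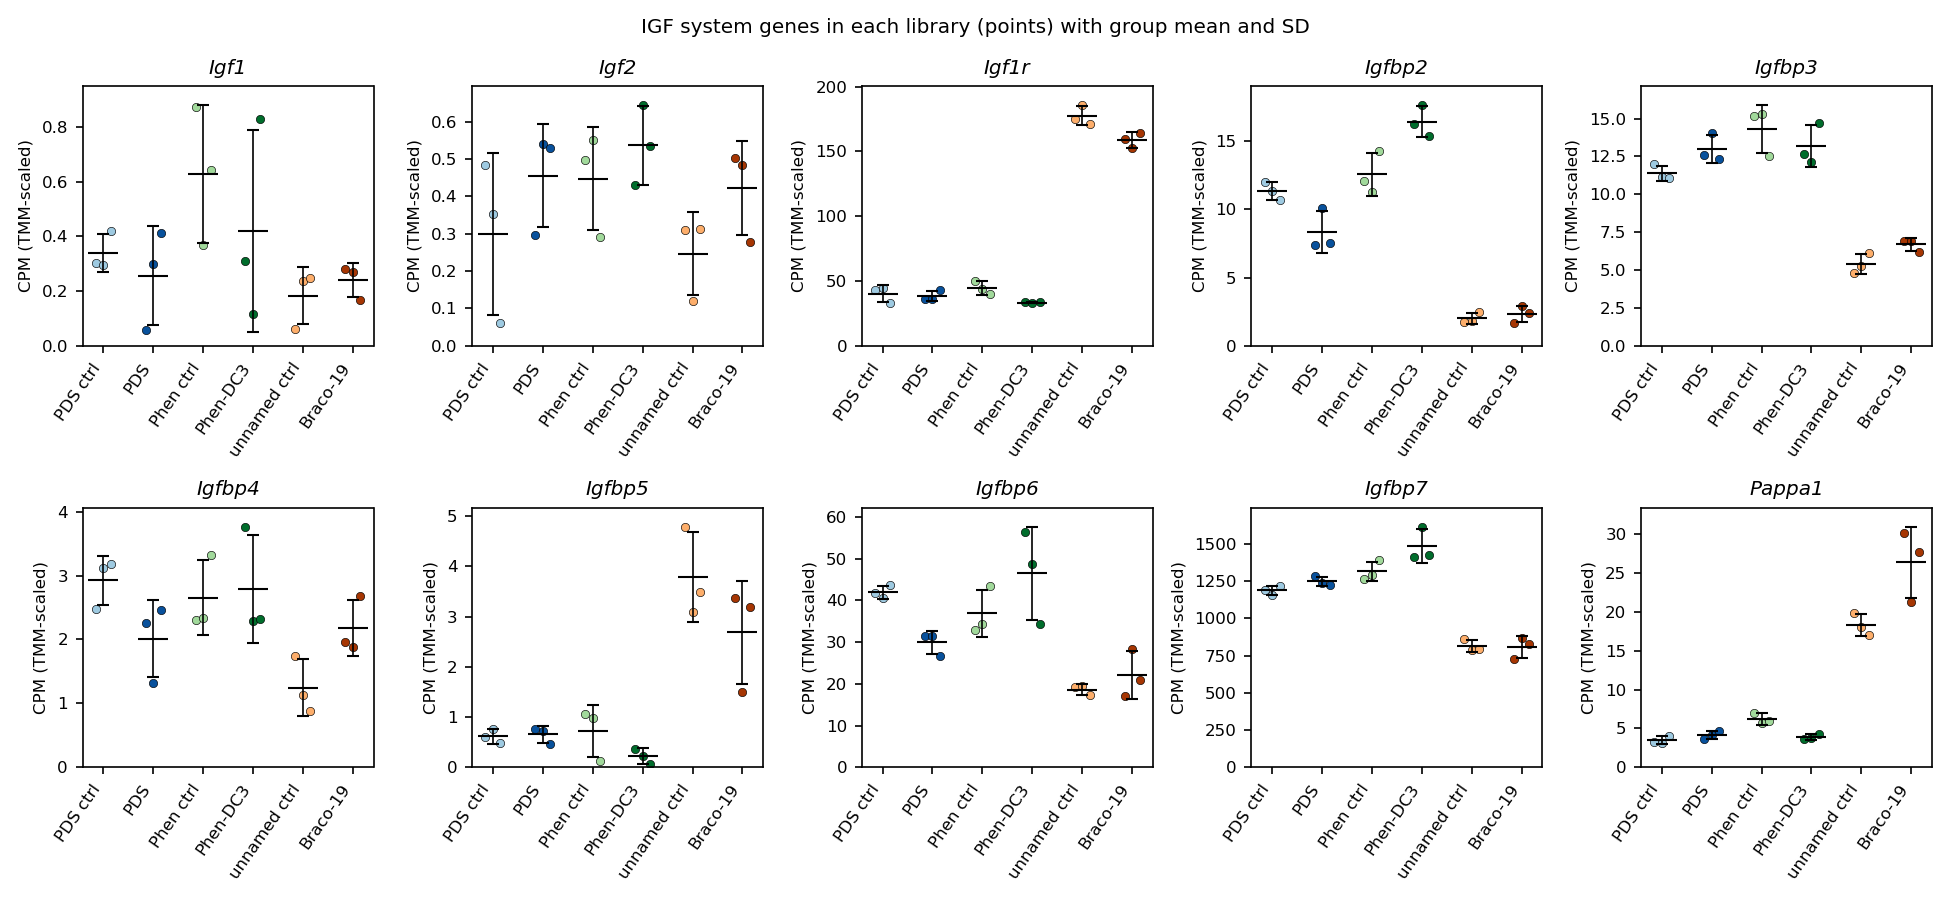
Each panel plots 1 gene, with TMM-scaled CPM on the vertical axis, 1 point per library in 6 groups of 3, and the group mean and SD as bars. Igf1r and Pappa1 are high in the unnamed control and Braco-19 libraries, while Igfbp2, Igfbp3 and Igfbp7 are high in the 4 groups of the PDS and Phen-DC3 experiments.

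The ligand transcripts were close to the limit of detection. Igf1 (ENSRNOG00000004517, chromosome 7, 28412198 to 28486609, plus strand; positions are those of the deposited table, for which the sources name no genome build) had 1 to 14 counts in each library. The counts were 5, 5 and 7 in the PDS controls and 1, 5 and 7 with PDS. They were 14, 6 and 11 in the Phen-DC3 controls and 5, 2 and 14 with Phen-DC3. The unnamed controls had 1, 4 and 4 counts and the Braco-19 libraries 5, 5 and 3, so treated and control libraries overlapped in all 3 experiments. Igf2 (ENSRNOG00000020369, chromosome 1, 215828102 to 215846911, minus strand) had 1 to 11 counts in each library, and its group means, from 0.247 CPM in the unnamed controls to 0.537 CPM with Phen-DC3, each overlapped the next in order. Changes in either ligand of the size the other genes showed under the compounds were not detectable at this depth.

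The receptor was among the best measured of the set. Igf1r (ENSRNOG00000014187, chromosome 1, 128924966 to 129206516, plus strand, gene model of 4101 bp) had 545 to 3129 counts. It stood at 43.2, 44.7 and 33.1 CPM in the PDS controls and at 35.8, 36.3 and 43.2 CPM with PDS, which overlap. It stood at 50.0, 43.8 and 40.0 CPM in the Phen-DC3 controls and at 33.6, 32.9 and 33.5 CPM with Phen-DC3, each treated library below each control. In the unnamed controls it was 175, 186 and 171 CPM, and with Braco-19 159, 153 and 164 CPM, again with no overlap and several times the level of the other 12 libraries.

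Among the binding proteins, Igfbp2, Igfbp3, Igfbp6 and Igfbp7 were lower in the unnamed control and Braco-19 libraries than in most or all of the others, and Igfbp5 was higher. Igfbp2 (ENSRNOG00000016957, chromosome 9, 80118029 to 80144789, plus strand) was 12.03, 11.4 and 10.7 CPM in the PDS controls and 7.35, 10.1 and 7.52 CPM with PDS. It was 12.1, 11.3 and 14.3 CPM in the Phen-DC3 controls and 16.2, 17.6 and 15.4 CPM with Phen-DC3. The PDS libraries lay below their controls and the Phen-DC3 libraries above theirs. The unnamed controls had 1.74, 1.78 and 2.49 CPM and the Braco-19 libraries 1.68, 2.91 and 2.40 CPM, which overlap. Its neighbour Igfbp5 (ENSRNOG00000017206, minus strand, 80150211 to 80167033, 5421 bp away on chromosome 9) went the other way between the sets. It had 10, 13 and 8 counts in the PDS controls, 13, 12 and 8 with PDS, 17, 16 and 2 in the Phen-DC3 controls and 6, 4 and 1 with Phen-DC3. In the unnamed controls it had 77, 52 and 56 counts and with Braco-19 60, 28 and 57. The highest group mean of Igfbp5 in CPM was 17.1 times the lowest, and that of Igfbp2 8.19 times, the widest spans of the 10 genes.

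Igfbp6 (ENSRNOG00000010977, chromosome 7, 143749221 to 143754054, plus strand) was 41.7, 40.5 and 43.6 CPM in the PDS controls and 31.5, 31.5 and 26.8 CPM with PDS, with no overlap. It was 33.0, 34.2 and 43.4 CPM in the Phen-DC3 controls and 56.3, 48.7 and 34.4 CPM with Phen-DC3, and the last of these lies among the controls. The unnamed controls had 19.3, 19.4 and 17.2 CPM and the Braco-19 libraries 17.1, 28.4 and 20.9 CPM, also overlapping. Igfbp3 (ENSRNOG00000061910, chromosome 14, 87457647 to 87465374, minus strand) averaged 11.4 ± 0.498 CPM (SD, n = 3) in the PDS controls and 13.0 ± 0.940 with PDS, 14.3 ± 1.57 in the Phen-DC3 controls and 13.2 ± 1.38 with Phen-DC3, and 5.39 ± 0.668 in the unnamed controls and 6.70 ± 0.433 with Braco-19. The PDS and the Braco-19 libraries each lay above their own controls. The gene beside it, Igfbp1, had no count in any library.

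Igfbp7 (ENSRNOG00000002050, chromosome 14, 33010300 to 33070190, plus strand) averaged 1187 ± 30.1 CPM (SD, n = 3) in the PDS controls and 1248 ± 29.8 with PDS. It averaged 1315 ± 65.3 CPM in the Phen-DC3 controls and 1483 ± 114 with Phen-DC3, and 814 ± 41.4 CPM in the unnamed controls and 807 ± 73.9 with Braco-19. The order of groups placed both Phen-DC3 groups highest, and the unnamed controls and Braco-19, which overlapped, lowest. Igfbp4 (ENSRNOG00000010635, chromosome 10, 86950557 to 86962578, plus strand) was 2.48, 3.12 and 3.17 CPM in the PDS controls and 2.25, 1.32 and 2.47 CPM with PDS. It was 1.74, 1.13 and 0.873 CPM in the unnamed controls and 1.96, 1.89 and 2.68 CPM with Braco-19, each treated library above each control. With Phen-DC3 it averaged 2.79 ± 0.845 CPM, within the spread of its controls at 2.66 ± 0.583.

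Pappa1 (ENSRNOG00000033527, chromosome 5, 80920568 to 81150940, plus strand, gene model of 5159 bp) was 3.20, 3.12 and 4.07 CPM in the PDS controls and 3.68, 4.21 and 4.70 CPM with PDS, which overlap. It was 7.04, 5.65 and 5.96 CPM in the Phen-DC3 controls and 3.70, 3.75 and 4.34 CPM with Phen-DC3. It was 19.9, 18.0 and 17.1 CPM in the unnamed controls and 30.1, 21.3 and 27.7 CPM with Braco-19. The Phen-DC3 libraries lay below their controls, the Braco-19 libraries above theirs.

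The controls were compared first, since they show what differs without a compound. Against the PDS controls, the unnamed controls had higher Igf1r, Igfbp5 and Pappa1 and lower Igfbp2, Igfbp3, Igfbp4, Igfbp6 and Igfbp7, 8 of the 9 tested genes at an adjusted p under 0.05 (edgeR's quasi-likelihood test with Benjamini-Hochberg adjustment over all 14184 genes). The background was high, as 73.3% of all tested genes passed, 37.7% higher and 35.6% lower, and the 8 of 9 is read against that. Igfbp5 was 2.60 ± 0.49 (log2 fold change ± SE) higher with an adjusted p of 7.24e-05, Pappa1 2.40 ± 0.16 higher with an adjusted p of 2.8e-11 and Igf1r 2.14 ± 0.10 higher with an adjusted p of 3.34e-13. Igfbp2 fell by 2.50 ± 0.19 with an adjusted p of 2.86e-10, and Igfbp4, Igfbp6, Igfbp3 and Igfbp7 had log2 changes of -1.23, -1.17, -1.08 and -0.54. Against the Phen-DC3 controls, 69.5% of all tested genes passed, 34.9% higher and 34.6% lower, and all 9 tested IGF genes did, with the same 3 higher and Igf1 added to those lower at -1.73 ± 0.69 (adjusted p = 0.0316). That call for Igf1 rests on 1 to 14 counts per library. It was lost without the first or the third Phen-DC3 control (adjusted p = 0.113 and 0.0609, respectively), without the first unnamed control (0.121), after the length correction (0.0649) and with DESeq2 (0.0583) or limma voom (0.134).

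Gene length moved with these control differences, and the 3 genes that were higher have the models of 4101, 5866 and 5159 bp. The length correction fitted, by loess on the log of gene length, each library's deviation from the gene's mean log2 CPM over the 18 libraries. Placed in the offsets of the model, this fit can also take up true differences that follow length. It left Igf1r, Igfbp5 and Pappa1 higher and Igfbp2, Igfbp3, Igfbp4 and Igfbp6 lower in both comparisons, and all 7 still passed. Several became smaller. Against the PDS controls Igfbp5 went from 2.60 to 1.45, Pappa1 from 2.40 to 1.44 and Igfbp6 from -1.17 to -0.53. Against the Phen-DC3 controls Pappa1 went from 1.56 to 0.77, Igfbp5 from 2.40 to 1.46 and Igfbp6 from -0.98 to -0.43. Igfbp7, with a model of 1102 bp, changed sign against the PDS controls, to 0.08 (adjusted p = 0.246). Against the Phen-DC3 controls it went from -0.69 to -0.15 (adjusted p = 0.0364), and with the replicate block added to -0.14 (adjusted p = 0.0842). The markers moved too. Of 9 tested nucleus pulposus and notochord markers, 4 were higher and 3 lower in the unnamed than in the PDS controls. Over all tested genes 37.7% were higher and 35.6% lower. Acan rose from 0.180 to 2.85 CPM and Cd24 fell from 37.3 to 13.7 CPM. The summed level of 9 matched fibroblast, annulus and tendon markers was 2740 to 3302 CPM in the PDS and Phen-DC3 experiments and 5805 to 7621 CPM in the other 6 libraries, mostly Col1a1, with Tnmd at 0. Of 8 tested genes of this list, 4 were higher and 2 lower in the unnamed than in the PDS controls. Against the Phen-DC3 controls 3 were higher and 4 lower, where 34.9% and 34.6% of all tested genes were. The summed level of 10 leukocyte markers was 95.5 to 122 CPM against 34.6 to 47.7 CPM, with Ptprc and Cd163 at 0. Of its 3 tested genes Cd14 was lower in the unnamed than in the PDS controls (110 to 34.0 CPM), and Cd68 (1.07 to 2.57 CPM) and Csf1r (0.161 to 0.801 CPM) were higher. Osteoblast markers summed to 9.93 to 14.8 CPM against 27.3 to 33.9 CPM, and Schwann and neural markers to 52.9 to 89.1 CPM against 34.9 to 41.0 CPM. Of 2 tested osteoblast markers, 1 was called higher in the unnamed than in the PDS controls. Ibsp, at 2.67 CPM in the PDS and 1.82 CPM in the unnamed controls, was not called. Of 3 tested Schwann and neural markers, 1 was higher and 2 were lower in the unnamed than in the PDS controls. Endothelial markers reached at most 1.87 CPM, with Cdh5 and Cldn5 at 0, and mural markers summed to 426 to 508 CPM in all libraries. All 4 tested mural markers differed between the unnamed and the PDS controls, Acta2 (283 to 115 CPM) and Cnn1 (43.7 to 13.2 CPM) lower and Pdgfrb (116 to 340 CPM) and Myh11 higher in the unnamed ones. The part of these lists in the IGF differences was not tested, and the labels give no batch, so the control group and anything else that differed between the sets cannot be told apart. The PDS and Phen-DC3 controls differed in 1 of the 9 genes, Pappa1, which was 0.84 ± 0.16 higher in the Phen-DC3 controls (adjusted p = 0.0162), against 6.09% of all tested genes, 4.50% higher and 1.59% lower. That call was lost without the second PDS control (adjusted p = 0.0880) and without the first or the second Phen-DC3 control (0.0680 and 0.0889). Without the third Phen-DC3 control 2 genes passed, Igfbp3 being added.

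**Figure D2:**
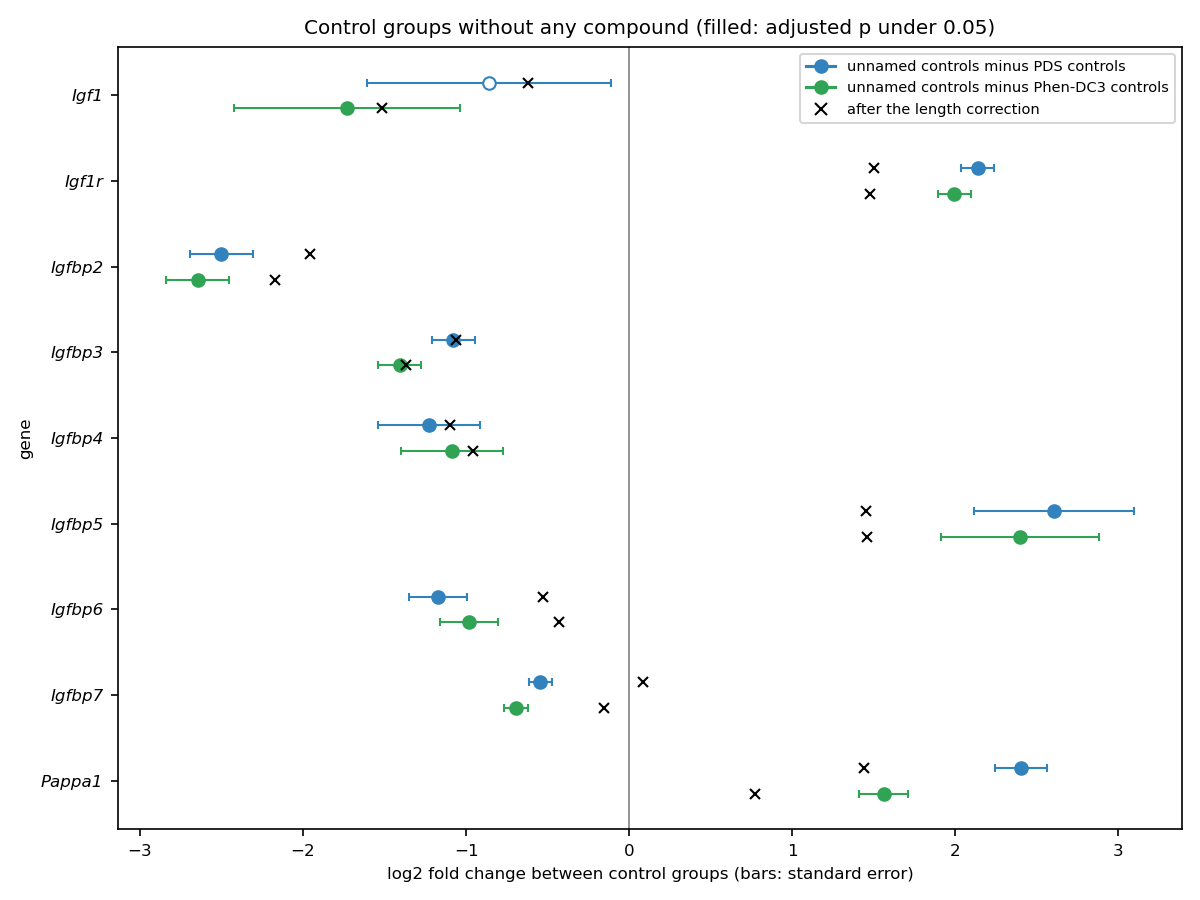
The plot gives the log2 fold change of the unnamed controls against the PDS controls (blue) and against the Phen-DC3 controls (green) for the 9 tested genes, with standard errors, filled where the adjusted p is under 0.05; crosses give the value after the length correction. Igf1r, Igfbp5 and Pappa1 lie to the right and the other 6 to the left, and the cross of Igfbp7 against the PDS controls lies at 0.08.

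PDS passed the test for none of the 9 genes with edgeR, where 8.09% of all tested genes passed, 5.13% higher and 2.96% lower. Igfbp6 and Igfbp2 were the 2 genes with an unadjusted p under 0.05. By p they ranked 1722 and 1923, respectively, among the 14184 tested genes, so many other genes had p-values as small. Igfbp6 had a log2 fold change of -0.49 ± 0.17 (adjusted p = 0.0970) and Igfbp2 of -0.45 ± 0.17 (adjusted p = 0.113), with all 3 treated libraries below all 3 controls for both. Igfbp6 passed with DESeq2 (adjusted p = 0.0416) and with limma voom and library quality weights (adjusted p = 0.0158), which called no other of the 9, and both genes passed when the 6 libraries of this experiment were fitted alone. The groups did not overlap for 5 of the 9 genes, Igfbp3 and Igfbp7 above and Igfbp2, Igfbp4 and Igfbp6 below, against 33.3% of all tested genes (17.7% above and 15.6% below). Igf1r had a log2 fold change of -0.07 ± 0.10 (adjusted p = 0.722). The summed level of the Schwann and neural marker list was 52.9 to 55.9 CPM with PDS and 74.0 to 84.3 CPM in its controls. Of its 3 tested genes 2 were called lower, against 2.96% of all tested genes, and the other stood at 0.36. Gfap went from 24.7 to 14.8 CPM. Of 9 tested nucleus pulposus and notochord markers, 1 was called higher and 1 lower, against 5.13% and 2.96%. Col2a1 went from 17.3 to 9.80 CPM and Ca12 from 0.736 to 2.75 CPM. The part of these lists in the IGF values was not tested.

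With Phen-DC3 the transcripts of the receptor and of the protease were called lower in the main fit. Each call was lost in 8 of 16 alternative settings, those without a single library included. Igf1r fell by 0.42 ± 0.10 on the log2 scale (adjusted p = 0.0228) and Pappa1 fell by 0.66 ± 0.16 (adjusted p = 0.0222). These were 2 of the 9 tested genes, against 8.01% of all tested genes, or 5.82% counting lower calls alone. None was called higher, and 2.19% of all tested genes were. Igfbp2 and Igfbp7 had all 3 treated libraries above all 3 controls without passing, at 0.39 ± 0.17 (adjusted p = 0.133) and 0.17 ± 0.07 (adjusted p = 0.121). Groups did not overlap for 4 of the 9 genes, 2 above and 2 below, against 22.1% of all tested genes (10.1% above and 11.9% below). Igfbp5 had the largest fold change, -1.67 ± 0.63 (adjusted p = 0.0966), on 1 to 17 counts per library, and passed at -2.18 (adjusted p = 0.00691) without the third control library, which held 2 counts. Igfbp6 passed at 0.51 (adjusted p = 0.0291) without the third treated library.

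Both calls were lost without some single libraries and moved with gene length. Neither Igf1r nor Pappa1 passed without the first control, the second control, the first treated or the second treated library, where Igf1r ranged from -0.33 to -0.43 and Pappa1 from -0.56 to -0.72. The number of all genes called for Phen-DC3 ran from 0 to 3315 when single libraries were left out. Genes over 5000 bp took 7.42% to 8.43% of the counts with Phen-DC3 and 9.26% to 10.7% in its controls, which do not overlap. After the length correction Igf1r stood at -0.26 (adjusted p = 0.134) and Pappa1 at -0.43 (adjusted p = 0.137). The 6 libraries of this experiment fitted alone called neither, at adjusted p of 0.199 and 0.202, whereas DESeq2 called both and limma voom called both together with Igfbp2, Igfbp6 and Igfbp7 as higher. Single markers of other cell types were called too, where 5.82% of all tested genes were called lower. Of 8 tested fibroblast, annulus and tendon markers, 1 was called lower with Phen-DC3, Pdgfra at -0.31 ± 0.08 (adjusted p = 0.0289). The 8 ran from -0.36 to 0.42, with a median of -0.19 against -0.01 over all genes. The list's sum was 2848 to 3187 CPM with Phen-DC3 and 3187 to 3302 CPM in its controls. Of 4 tested mural markers 1 was called lower, Pdgfrb at -0.36 ± 0.09 (adjusted p = 0.0213), with sums of 461 to 494 and 436 to 486 CPM. The 4 ran from -0.36 to 0.33, with a median of -0.04. Cnn1 went from 39.5 to 49.7 CPM and Acta2 from 282 to 313 CPM, so the list had no common direction. The part of these lists in the Igf1r and Pappa1 values was not tested.

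Braco-19 passed the test for none of the 9 genes with edgeR, and for 0.275% of all tested genes, 0.169% higher and 0.106% lower. Pappa1 had the smallest p, at 0.52 ± 0.14 (adjusted p = 0.113), and passed with DESeq2 (adjusted p = 0.0428), with limma voom (adjusted p = 0.00420) and with the 6 libraries alone (adjusted p = 0.0264). Igfbp4, at 0.80 ± 0.31 (adjusted p = 0.195), passed with limma voom alone among these (adjusted p = 0.0385). With Igfbp3, at 0.31 ± 0.13 (adjusted p = 0.226), these were the 3 genes with an unadjusted p under 0.05. By p, Pappa1 ranked 165, Igfbp4 1399 and Igfbp3 1884 among the 14184 tested genes. All 3 had every treated library above every control, and Igf1r, at -0.16 ± 0.10 (adjusted p = 0.372), had every treated library below. These are 4 of the 9 genes, against 28.1% of all tested genes (13.7% above and 14.4% below). Igfbp7 differed by -0.01 ± 0.07.

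**Figure D3:**
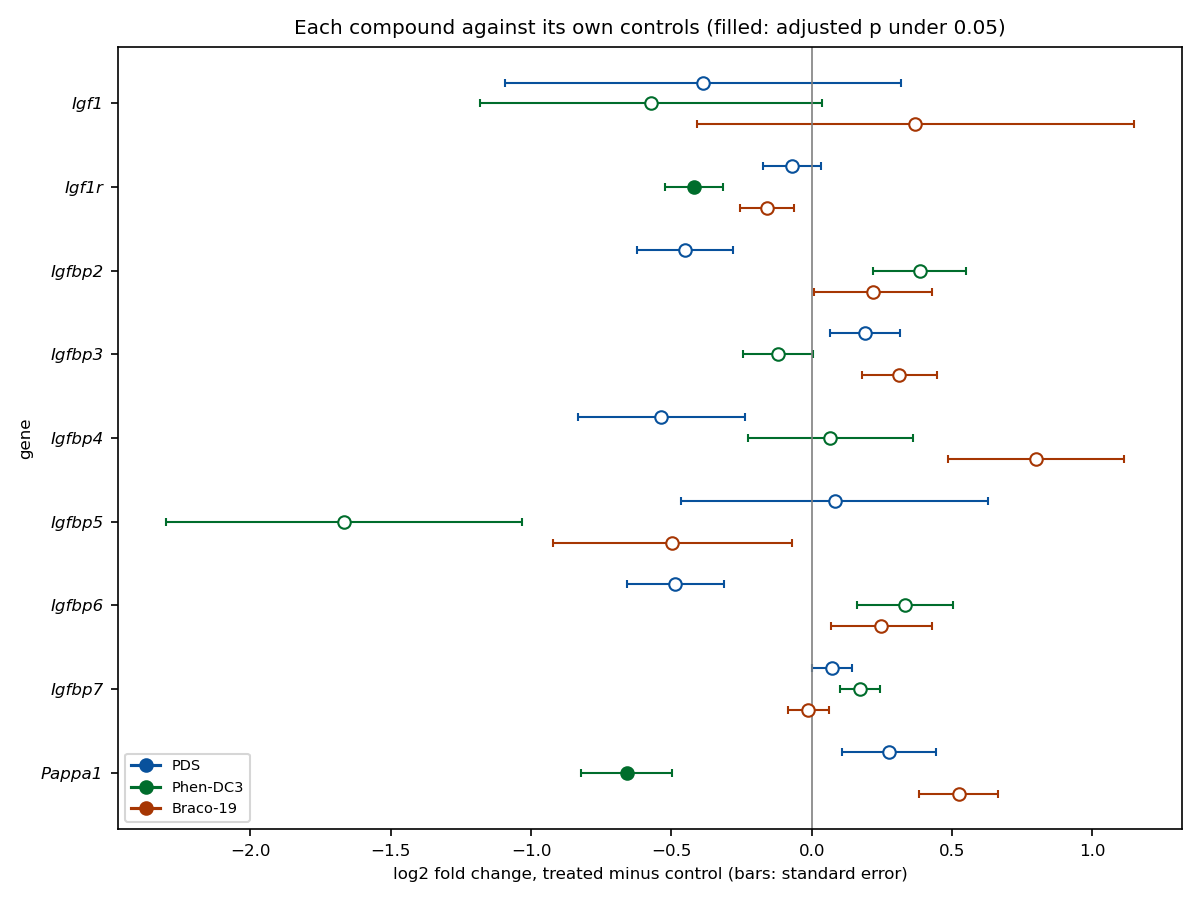
For each of the 9 tested genes the plot gives the log2 fold change of PDS (blue), Phen-DC3 (green) and Braco-19 (red) against their own controls, with standard errors, filled where the adjusted p is under 0.05. The filled points are Igf1r and Pappa1 under Phen-DC3, and the points of Igfbp2, Igfbp6 and Pappa1 lie on opposite sides of 0 for PDS and Phen-DC3.

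The compounds were compared with each other through the difference of their effects, each against its own controls, in 3 pairs, with p-values adjusted over all tested genes within each pair. Phen-DC3 and PDS differed in 3 of the 9 genes, against 20.2% of all tested genes, 7.76% with a positive difference, Phen-DC3 minus PDS, and 12.4% with a negative one. The difference, Phen-DC3 minus PDS, was 0.84 ± 0.24 for Igfbp2 (adjusted p = 0.0199), whose log2 fold changes were 0.39 and -0.45. It was 0.82 ± 0.24 for Igfbp6 (adjusted p = 0.0267), with 0.33 and -0.49, and -0.93 ± 0.23 for Pappa1 (adjusted p = 0.0105), with -0.66 and 0.27. The difference of Braco-19 minus Phen-DC3 was 1.18 ± 0.21 for Pappa1 (adjusted p = 0.0391), with log2 fold changes of 0.52 and -0.66, 1 of the 9 genes in a pair where 0.0494% of all tested genes passed, 0.0353% with a positive and 0.0141% with a negative difference. That of Braco-19 minus PDS was 1.34 ± 0.43 for Igfbp4 (adjusted p = 0.0447), with 0.80 and -0.54, again 1 of 9, against 14.0% of all tested genes, 6.75% positive and 7.28% negative. For Pappa1 the Phen-DC3 and PDS libraries averaged 3.93 and 4.19 CPM, while their controls averaged 6.22 and 3.47 CPM, so the controls stood further apart than the treated groups. The Pappa1 call between Phen-DC3 and PDS was kept without any single library, and after the length correction its difference was -0.62 (adjusted p = 0.0618). The Igfbp2 call was lost without replicate 3 of PDS or replicate 2 of Phen-DC3 (adjusted p = 0.0588 and 0.0526), and the Igfbp6 call without replicate 3 of PDS or of its controls, or without replicate 1 or 2 of Phen-DC3 or of its controls, at adjusted p of 0.0567 to 0.0789. The Igfbp4 call was lost without any PDS library or without replicate 2 or 3 of the PDS controls, the unnamed controls or Braco-19, at adjusted p of 0.0545 to 0.116. The Pappa1 call between Braco-19 and Phen-DC3 was lost without any Braco-19 library, any unnamed control or replicate 1 or 2 of Phen-DC3 or of its controls, at adjusted p of 0.0560 to 0.194. Since Braco-19 was tested in the other set of libraries, its differences from PDS and Phen-DC3 also hold whatever else differed between the sets.

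The differences that did not pass still allow sizeable effects. For Igf1r the 95% interval of the difference ran from -0.67 to -0.03 for Phen-DC3 against PDS (adjusted p = 0.0903), from -0.40 to 0.22 for Braco-19 against PDS and from -0.05 to 0.57 for Braco-19 against Phen-DC3. These intervals are not adjusted for the number of genes. For Igfbp7 the intervals were narrower, from -0.12 to 0.32, from -0.31 to 0.14 and from -0.41 to 0.04 in the same order. For Pappa1, Braco-19 against PDS, the interval ran from -0.23 to 0.73.

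Other genes of the pathway gave the same kind of count. A first list had 20 further symbols, for receptors, carriers, proteases and other genes linked to the IGF system. Among these others were Ghr, H19, Stc1, Stc2, Igf2bp1, Igf2bp2 and Igf2bp3. Of the 20 symbols, 17 were matched and 12 tested. PDS raised 1, Esm1, a secreted proteoglycan whose amino terminus resembles that of the binding proteins, by 0.67 ± 0.08 (adjusted p = 1.27e-05), from 221 ± 25.2 to 351 ± 10.3 CPM (SD, n = 3). It lowered 1, Htra3, a secreted serine protease, which fell by 0.55 ± 0.14 (adjusted p = 0.0195) and lost the call without the second PDS control or any 1 of the 3 PDS libraries. These are 2 of 12, against 8.09% of all tested genes, and the median of the 12 was 0.14, against 0.02 over all genes. Phen-DC3 lowered 2 of the 12, Igf2r, the receptor that removes Igf2, by a log2 change of -0.38 ± 0.09 (adjusted p = 0.0178), and Insr, the insulin receptor, by -0.57 ± 0.15 (adjusted p = 0.0257), with a median of -0.09 against -0.01 and 8.01% of all tested genes called. Braco-19 called none of the 12 with edgeR, against 0.275% of all tested genes. Htra1, a protease that cleaves binding proteins, was the most abundant gene of this list, at 1861 to 3040 CPM in the group means, and did not pass for any compound.

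Of 31 symbols for signalling below the receptor, 30 were matched and 29 tested. PDS lowered 1 of the 29, against 2.96% of all tested genes, the adaptor Grb14, which fell by 0.21 ± 0.06 (adjusted p = 0.0368) and lost the call without any 1 of its 6 libraries. Phen-DC3 lowered 3 of the 29 and raised none, against 5.82% of all tested genes lower and 2.19% higher. The exchange factor Sos1 fell by 0.51 ± 0.14 (adjusted p = 0.0341), and the kinase subunits Pik3r1 and Pik3ca fell by 0.42 ± 0.12 (adjusted p = 0.0414) and by 0.37 ± 0.11 (adjusted p = 0.0489). The median of the 29 was -0.18, against -0.01 over all genes. Braco-19 called none of the 29 with edgeR, against 0.275% of all tested genes.

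The Phen-DC3 calls in these lists were also lost without some single libraries and moved with gene length. Of the first list 0 to 5 genes passed when single libraries were left out, and of the second 0 to 12. The second had 0 without either of the first 2 controls or either of the first 2 treated libraries. It had 12 without the third control and 10 without the third treated library. Over all tested genes the number called for Phen-DC3 also ran widely, from 0 to 3315, when single libraries were left out. After the length correction 0 genes of the second list passed with edgeR, Insr stood at -0.24 (adjusted p = 0.296), and Igf2r changed sign, to 0.03 (adjusted p = 0.809). Between the controls, Igf2r was 2.59 ± 0.09 and Insr 2.25 ± 0.14 higher in the unnamed than in the PDS controls, among 7 higher and 3 lower of the 12 and 18 higher and 9 lower of the 29, against 37.7% of all tested genes higher and 35.6% lower.

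**Figure D4:**
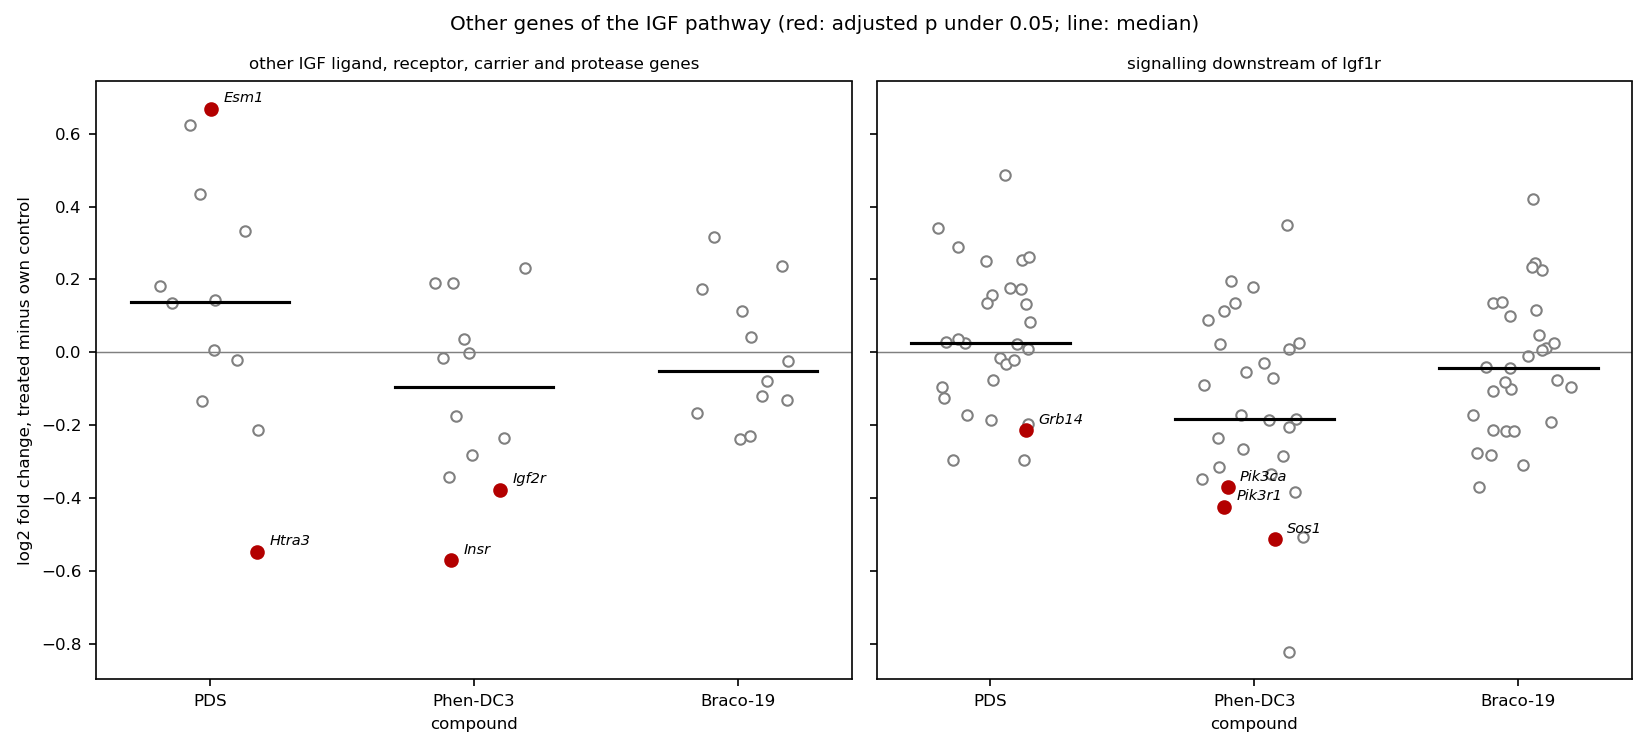
Points are the log2 fold changes of each compound against its own controls for the 12 tested genes of the first list (left) and the 29 of the second (right), red and named where the adjusted p is under 0.05, with the median as a line. Esm1 stands highest under PDS, and the named genes under Phen-DC3 all lie below 0.

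For the genes called under a compound, the most similar profiles over the 18 libraries were sought among 9208 other genes whose log2 CPM averaged 3 or more. Igf1r was nearest to Emc1 and Tln1, each with a Pearson r of 0.996, and Pappa1 to Ids at 0.981 and Ice1 at 0.978. These correlations describe points that share the difference between the sets of libraries.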

How the data were processed

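Total RNA of cultured nucleus pulposus cells was sequenced in 18 libraries, 6 groups of 3. The deposited table holds raw read counts per gene, made with CASAVA, HISAT2 and featureCounts 1.5.0-p3, per the submitters' processing notes; no source used here names the genome build or the strand setting. The deposited gene lengths, in bp, were used for CPM per kb and for the length correction. Counts were tested in R 4.3.3 with edgeR 4.0.16 (filterByExpr, TMM scaling, robust quasi-likelihood fit of 6 group means to all 18 libraries, 12 residual degrees of freedom), with Benjamini-Hochberg adjustment over 14184 genes and a threshold of 0.05. CPM are TMM-scaled; correlations used log2 CPM with a prior count of 2. Alternatives were RLE and upper-quartile scaling, no filter, a filter of 1 CPM in 3 libraries, DESeq2 1.42.0, limma 3.58.1 voom with quality weights, the libraries of a comparison alone, a replicate block, a length correction (loess, span 0.5) and leaving out each library. The genes named were the members, from the pathway lists those called for a compound (at most 6 per list and comparison, smallest adjusted p first), and the 2 profiles most like each member called for a compound; the genes were chosen, and the lists drawn up, with earlier results of these data known. No 2 libraries of a group agreed within sampling noise, the mean chi-square per gene being 4.12 to 34.0. Some items are not reported here. The script was tested on simulated data. Htra1 and the marker sums were singled out after their values were seen.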

Additional observations from a re-analysis of the deposited data

Results flagged for a closer look

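In 5 cases the effects of 2 compounds on the same gene differed by a test of the difference itself. Igfbp2 had effects of 0.39 under Phen-DC3 and -0.45 under PDS, a difference of 0.84 ± 0.24 on the log2 scale (adjusted p = 0.0199). Igfbp6 had effects of 0.33 and -0.49, a difference of 0.82 ± 0.24 (adjusted p = 0.0267). Pappa1 had effects of -0.66 and 0.27, a difference of -0.93 ± 0.23 (adjusted p = 0.0105). Igfbp4 had effects of 0.80 under Braco-19 and -0.54 under PDS, a difference of 1.34 ± 0.43 (adjusted p = 0.0447). Pappa1 had effects of 0.52 under Braco-19 and -0.66 under Phen-DC3, a difference of 1.18 ± 0.21 (adjusted p = 0.0391). The calls between Phen-DC3 and PDS were 3 of the 9 tested genes, against 20.2% of all tested genes. That between Braco-19 and PDS was 1 of 9, against 14.0%, and that between Braco-19 and Phen-DC3 1 of 9, against 0.0494%. Of 22 alternative settings, those without a single library included, the 5 calls were lost in 4, 8, 2, 12 and 15, in the order given. The 2 cases with Braco-19 also hold whatever else differed between the sets of libraries.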

How the results depend on the processing

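Low counts limit Igf1, Igf2 and Igfbp5 most, and 3 libraries a group limit every call. The unnamed controls had 8 genes called against the PDS controls, 8 also without any single library and 7 with the length correction, with or without the block; against the Phen-DC3 controls 9 were called, 8 to 9 without single libraries, 8 with the length correction and 7 with the block added. For PDS, where 0 of the 9 genes were called, DESeq2 called 1, limma voom 1 and the libraries alone 2. For Braco-19, from 0, DESeq2 called 1, limma voom 2 and the libraries alone 1. For Phen-DC3, from 2, limma voom called 5, and the libraries alone, the length correction and the length correction with replicate block each 0; without single libraries the count was 0 to 3. Under each compound limma voom also called more of all genes than edgeR did, with the counts given below. For the Phen-DC3 against the PDS controls, from 1, limma voom called 2, the libraries alone 0, the length correction 2, the length correction with replicate block 0, and single libraries left out gave 0 to 2. For Phen-DC3 against PDS, from 3, the length correction left 1 and the length correction with replicate block 0, with 1 to 5 without single libraries (1 without PDS replicate 3 or Phen-DC3 replicate 2, 5 without Phen-DC3 control replicate 3). For Braco-19 against PDS, from 1, upper-quartile scaling, DESeq2, limma voom and the libraries alone each gave 2, no filter 0 and the length correction with replicate block 0. Without single libraries it was 0 to 3: 3 without Braco-19 replicate 1, and 0 without any PDS library or without replicate 2 or 3 of the PDS controls, the unnamed controls or Braco-19. For Braco-19 against Phen-DC3, from 1, RLE scaling, the libraries alone, the length correction and the length correction with replicate block gave 0, and single libraries left out gave 0 to 1, with 0 without any unnamed control, any Braco-19 library or either of the first 2 Phen-DC3 controls and treated libraries.

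The labels do not say whether the replicate numbers pair the libraries. Correlations of the deviations from the group means of same-numbered libraries were -0.0362, 0.0637 and 0.00063 for PDS, -0.116, -0.0331 and -0.251 for Phen-DC3 and 0.058, 0.0717 and 0.00885 for Braco-19. Those of different-numbered libraries ran from -0.0654 to 0.0648, from -0.0702 to 0.186 and from -0.0708 to 0.00877 in the same order. Pairing with a weak shared effect could give such values too, so they do not settle it. With the number as a replicate block, 0 IGF genes were called for Phen-DC3, 0 for Braco-19 against PDS and 0 for Braco-19 against Phen-DC3, and for Phen-DC3 against PDS Igfbp6 lost its call (0.81, adjusted p = 0.0779), leaving 2.

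Over all genes, the 1148 calls for PDS became 2265 with limma voom, 2053 with the libraries alone and 587 with the block. The 1136 for Phen-DC3 became 2024 with DESeq2, 4719 with limma voom, 1 with the libraries alone, 1 with the block and 47 with the length correction. The 39 for Braco-19 became 302 with DESeq2, 1808 with limma voom, 781 with the libraries alone and 2 with the block. The 864 between the Phen-DC3 and PDS controls became 1621, 2859, 3 and 543 under the same settings and 489 with the length correction. Upper-quartile scaling moved the median of all genes by -0.112 in the comparisons of the unnamed controls and changed no direction of an IGF gene.

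The values that changed sign follow, and the cause was not tested. Among them, Igfbp7 in the unnamed against the PDS controls and Igf2r under Phen-DC3 were called, and both turned with the length correction. Without single libraries, under PDS, Igf1r ran from -0.193 to 0.0103, Igfbp5 from -0.0684 to 0.271 and Igf1 from -0.890 to 0.0714. Igfbp4 under Phen-DC3 ran from -0.208 to 0.263. Under Braco-19, Igf1 ran from -0.0256 to 0.634 and Igfbp7 from -0.0678 to 0.0592, with 0.0371 under limma voom. Igfbp5 between the Phen-DC3 and PDS controls ran from -0.181 to 0.719, with -0.00908 after the length correction and -0.0798 with the block added. Igfbp7 in the unnamed against the PDS controls was 0.0833 after the length correction and 0.0986 with the block added, and Igf2r under Phen-DC3 was 0.0327 and 0.0335.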
